A study of Mus musculus with 6 samples.

Results

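The genes described here carry sugar and lactate across membranes and break glucose down to lactate. They were picked by a rule on gene symbols that uses no measured value, though the family was taken up with earlier results of these data known. The rule takes every gene with a single symbol on the array for a glucose transporter (Slc2), a sodium-coupled transporter (Slc5), a monocarboxylate transporter (Slc16), a glycolytic enzyme, a lactate dehydrogenase, a pyruvate dehydrogenase kinase or a fructose bisphosphatase. Of 19938 genes tested, 66 met the rule. The pattern also takes in Slc2a4rg-ps, a pseudogene named after a regulator of Slc2a4, which leaves 65 transporter and enzyme genes. Eno1, Gapdh, Gpi1 and Pfkfb1, which the rule also names, are not analysed here. Rows that list Gapdh list several other genes beside it.

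The study set Scf-GFP+ cells against unselected marrow in young adult C57BL/6 mice. Scf-GFP+ cells came from mice heterozygous for a knock-in of green fluorescent protein in the gene for stem cell factor (Kitl), and they mark the stromal cells that make this cytokine in the marrow. Whole bone marrow came from wild-type mice, so genotype, cell population and the second sorting pass given to Scf-GFP+ cells changed together and cannot be told apart. Each of the 6 arrays, 3 per group, carried amplified RNA of 5000 sorted cells, and the labels call them independent aliquots without naming animals. The p-values therefore rest on aliquot-to-aliquot spread, part of which may be technical. Values are on a log2 scale after RMA. This method corrects background, gives probe values the same distribution on all arrays and then summarises the probes of a transcript. The summarised values kept small differences, with array medians from 6.564 to 6.631.

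Glucose enters cells through facilitative carriers of the Slc2 family or together with sodium through some Slc5 carriers. It is trapped by hexokinase, split and oxidised to pyruvate, and pyruvate is either reduced to lactate by lactate dehydrogenase, with lactate leaving through Slc16 carriers, or oxidised in mitochondria by pyruvate dehydrogenase, which the Pdk kinases switch off. Neutrophils are known to rely largely on glycolysis, and mature red cells depend on it alone.

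The arrays carried the populations named on their labels. Kitl measured 10.16 to 10.83 in Scf-GFP+ cells and 4.56 to 5.05 in whole marrow, and Lepr, a receptor on these stromal cells, 11.27 to 11.78 and 4.94 to 5.30. A fixed list of 8 erythroid markers averaged 5.91 to 6.32 in Scf-GFP+ cells and 10.40 to 10.78 in whole marrow. A list of 10 neutrophil markers averaged 9.31 in Scf-GFP+ replicate 1 but 6.05 and 6.20 in replicates 2 and 3, against 11.89 to 12.02 in whole marrow, and Ptprc, which encodes CD45, followed with 8.65, 5.68 and 6.03. Of 8 endothelial markers, Emcn and Cdh5 were called higher in Scf-GFP+ cells and Pecam1 lower. Emcn measured 7.02 to 7.68 and Cdh5 6.55 to 8.09 in Scf-GFP+ cells, both lowest in replicate 3. The part of these markers in the results was not tested, and values without Scf-GFP+ replicate 1 are given for some genes. Xist was high in Scf-GFP+ replicates 1 and 2 (11.50 and 11.81) and at most 5.10 on the other 4 arrays. The Y-linked Eif2s3y ran the other way, with 4.41 and 3.72 against 7.33 to 8.23. Read from these transcripts, donor sex differed within Scf-GFP+ cells and in part between the groups. A fit with a term for this split compares Scf-GFP+ replicate 3 alone with whole marrow, and its value is given where it ends the call of a member.

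Of the 66 genes, 6 were called higher in Scf-GFP+ cells and 8 lower. A call needed an adjusted p below 0.05 in limma over all genes tested and a difference of at least 2-fold. Pdk4, Slc5a3, Ldhb, Slc16a7, Slc2a12 and Slc2a10 rose, and Slc16a3, Slc16a10, Hk3, Slc16a6, Hk2, Pkm, Slc16a1 and Pgk1 fell. Together 14 genes were called, 21.2%, where 16.9% of all genes tested were called (9.01% higher and 7.89% lower). The share is near that background, so the members as a set are described here by which of them moved. Their median difference, Scf-GFP+ minus whole marrow on the log2 scale, was -0.15, beside -0.08 for all genes. All 3 arrays of one group lay apart from all 3 of the other for 13 members higher and 24 lower in Scf-GFP+ cells, 19.7% and 36.4%, where 19% and 26.4% of all genes did so. In sorted or mixed cells, fewer cells of a type and less RNA per cell cannot be told apart, and this holds for every difference below.

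**Figure D1:**
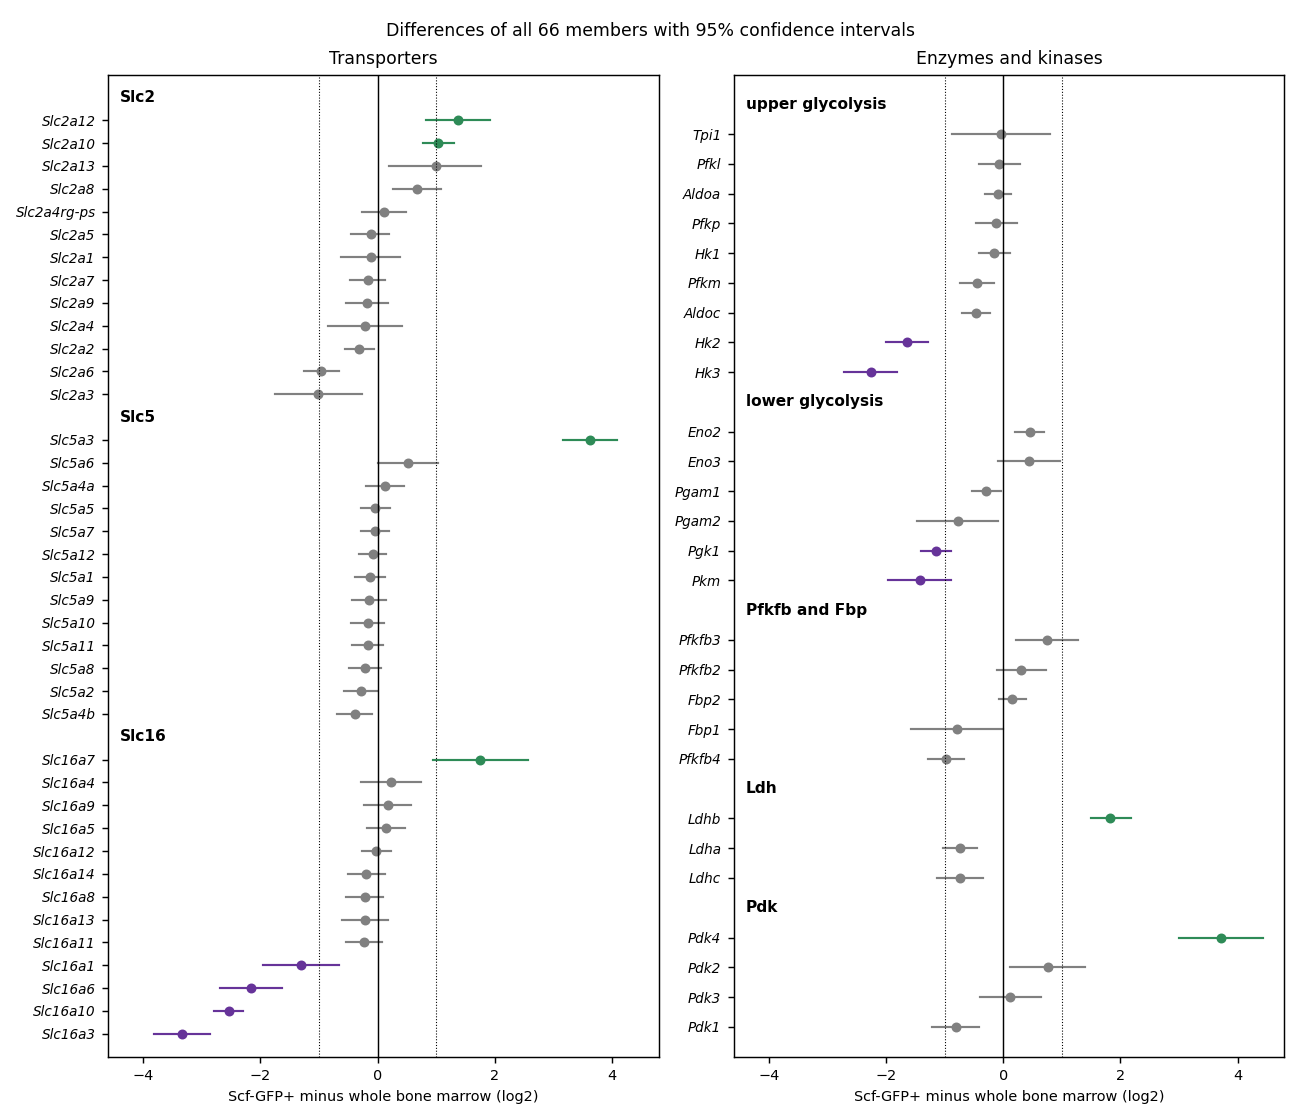
Difference between Scf-GFP+ cells and whole bone marrow (log2, horizontal axis) for each of the 66 genes, by family, with limma's 95% confidence interval as a bar, n = 3 arrays per group. Green points were called higher, purple points lower and grey points neither, and dotted lines mark a 2-fold difference. Pdk4 (3.72) and Slc5a3 (3.62) lie farthest right and Slc16a3 (-3.34) farthest left.

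The sequences before the transcription start of 6 of these genes are shown to compare members that fell with members that rose at a short motif. The 6 were not drawn by a stated rule. Those shown among the members called lower hold the most sites of that group, so the counts over all members are given below. The motif is ACGTG, the core of the element bound by hypoxia-inducible factors and of many E-boxes, searched on both strands, so that CACGT is the same motif read from the other strand and CACGTG is a match on both. Windows of 250 bases before the RefSeq start (GRCm38.p6) were found for 56 of the 66 genes. They are written 5′ to 3′ on the gene's strand with ACGTG or CACGT in capitals. Slc16a3 (chr11:120948817-120949066, plus strand), Pgk1 (chrX:106186850-106187099, plus strand) and Hk2 (chr6:82774455-82774704, minus strand) were called lower, and Ldha (chr7:46845554-46845803, plus strand, the first of its starts) passed the adjusted p with a smaller difference. Ldhb (chr6:142507958-142508207, minus strand) and Slc5a3 (chr16:92058072-92058321, plus strand) were called higher.
Slc16a3: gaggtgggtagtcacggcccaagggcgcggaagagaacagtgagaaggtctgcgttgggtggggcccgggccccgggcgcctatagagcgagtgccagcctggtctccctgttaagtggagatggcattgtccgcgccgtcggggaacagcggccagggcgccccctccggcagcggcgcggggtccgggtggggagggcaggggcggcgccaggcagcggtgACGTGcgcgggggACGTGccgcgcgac
Pgk1: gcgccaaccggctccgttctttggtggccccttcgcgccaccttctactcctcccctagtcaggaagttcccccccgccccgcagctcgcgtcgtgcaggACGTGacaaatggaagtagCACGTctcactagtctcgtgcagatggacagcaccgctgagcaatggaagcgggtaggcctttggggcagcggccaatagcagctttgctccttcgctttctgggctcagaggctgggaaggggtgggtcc
Hk2: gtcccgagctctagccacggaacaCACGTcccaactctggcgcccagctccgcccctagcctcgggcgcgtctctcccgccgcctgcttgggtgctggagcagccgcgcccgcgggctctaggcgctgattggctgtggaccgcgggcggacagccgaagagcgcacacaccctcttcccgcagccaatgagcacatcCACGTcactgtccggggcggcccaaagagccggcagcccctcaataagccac
Ldha: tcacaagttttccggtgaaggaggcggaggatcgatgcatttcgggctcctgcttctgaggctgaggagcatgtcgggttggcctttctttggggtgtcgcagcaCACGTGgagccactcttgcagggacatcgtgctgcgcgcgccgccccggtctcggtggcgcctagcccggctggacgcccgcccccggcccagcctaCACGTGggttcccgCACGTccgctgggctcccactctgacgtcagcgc
Ldhb: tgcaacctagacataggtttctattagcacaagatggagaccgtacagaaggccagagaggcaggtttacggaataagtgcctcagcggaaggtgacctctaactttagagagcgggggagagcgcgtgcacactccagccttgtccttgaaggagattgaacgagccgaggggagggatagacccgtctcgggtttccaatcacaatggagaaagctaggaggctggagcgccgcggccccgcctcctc
Slc5a3: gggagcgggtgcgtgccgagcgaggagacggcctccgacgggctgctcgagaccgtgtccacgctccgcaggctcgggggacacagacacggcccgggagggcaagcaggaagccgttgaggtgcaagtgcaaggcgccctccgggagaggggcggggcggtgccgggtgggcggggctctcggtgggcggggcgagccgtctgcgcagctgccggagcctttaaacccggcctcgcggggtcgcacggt

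The printed window of Ldha held 3 separate sites and the window of its other start (chr7:46846832-46847081) held 0. Those of Slc16a3, Pgk1 and Hk2 held 2 each, and those of Ldhb and Slc5a3 held 0. Hk3 and Slc16a1, called lower and not printed, held 1 each. Like Ldha, the genes Aldoc, Ldhc, Pdk1, Pfkfb4, Pfkm and Slc2a6 were lower by the adjusted p only. Among these, Pfkm alone had the motif. Over the members called lower, 6 of the 7 genes with a window had the motif in at least 1 window, and Slc16a10 did not. Over those called higher, 0 of 5 had it. Of the members called neither, 12 of 44 had it. Counted by window, the motif was in 6 of 8, 0 of 5 and 16 of 60. Over all of RefSeq it was in 16.6% of 32851 windows and, counted by gene in the same way, in 4998 of 27025 genes (18.5%). The counts are small, a match is a description of these letters and not a bound site, and the motif was counted after the calls were known.

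Monocarboxylate transporters held the most calls of the 3 transporter families, with 4 lower, 1 higher and 8 neither among 13 (38.5% called, beside 16.9% of all genes). Slc16a3, also called MCT4, exports lactate from strongly glycolytic cells. It measured 8.11, 7.68 and 8.01 in the 3 Scf-GFP+ arrays and 10.91, 11.37 and 11.53 in whole marrow. The groups lay far apart, with 10.1-fold less in Scf-GFP+ cells (-3.34 on the log2 scale with a standard error of 0.20, 3 arrays against 3, limma adjusted p = 4.9e-05; errors after ± are standard errors from here on). Without Scf-GFP+ replicate 1, the array with the high neutrophil markers, the difference was -3.43.

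Slc16a1, or MCT1, carries lactate and pyruvate in either direction and is common in red cell precursors. Its Scf-GFP+ values of 5.68, 6.08 and 5.83 lay below those of whole marrow, 6.69, 7.75 and 7.09. It fell by 1.31 ± 0.27 (2.49-fold, limma adjusted p = 0.0125), and whole marrow varied more than Scf-GFP+ cells. The call was not kept with a term for the Xist split (-1.35, limma adjusted p = 0.0887) or in limma's test against 1.5-fold (adjusted p = 0.115).

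Slc16a10, which carries aromatic amino acids rather than lactate, was tight in both groups: 5.94, 5.83 and 6.04 in Scf-GFP+ cells against 8.55, 8.47 and 8.43. It fell by 2.54 ± 0.11 (5.83-fold, limma adjusted p = 1.2e-05). Slc16a6, also called MCT7, measured 7.01, 6.88 and 7.46 against 9.25, 9.63 and 8.96 and fell by 2.16 ± 0.22 (4.47-fold, limma adjusted p = 0.000568). Neither family member overlapped between the groups on any array.

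Slc16a7, or MCT2, a carrier with high affinity for lactate and pyruvate, was the family member that rose. It measured 7.81, 6.60 and 6.52 in Scf-GFP+ cells and 5.28, 5.17 and 5.21 in whole marrow, which lies at the first quartile of the arrays (5.19 to 5.31). All Scf-GFP+ arrays were higher, replicate 1 most of all, and the difference was 1.75 ± 0.34 (3.37-fold, limma adjusted p = 0.00948). Without replicate 1 it was 1.34 (limma adjusted p = 0.00076), and with a term for the Xist split 1.30, which was not called (limma adjusted p = 0.115). The other 8 monocarboxylate transporters differed by -0.23 to 0.23. Bsg and Emb, the chaperones that bring these carriers to the cell surface and the whole of that list, differed by -0.17 ± 0.15 and -0.47 ± 0.19 and were not called (limma adjusted p = 0.461 and 0.123).

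**Figure D2:**
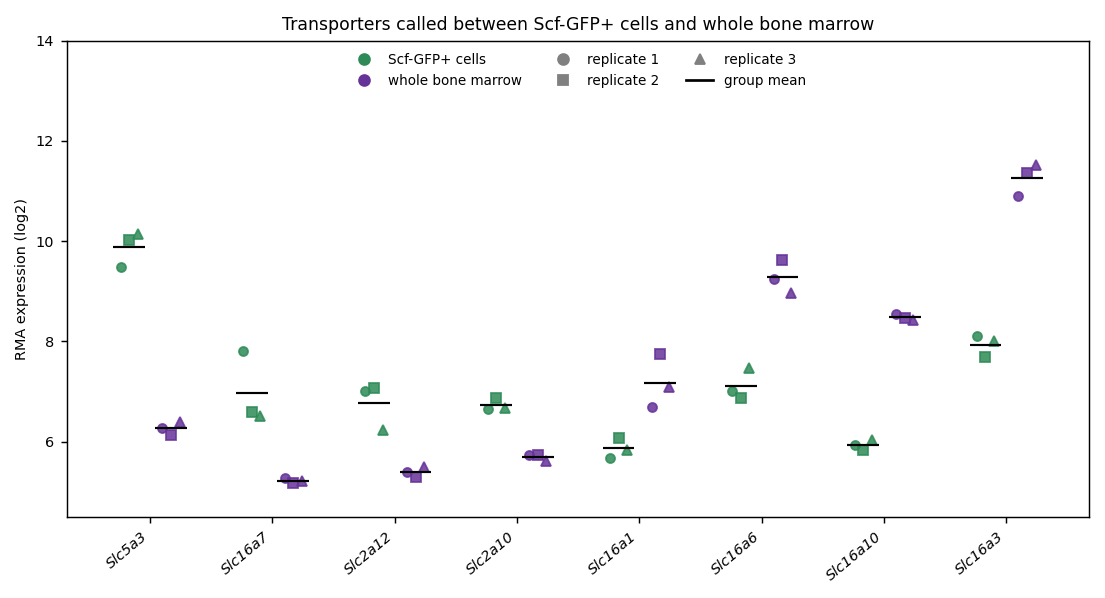
RMA expression (log2, vertical axis) of the 8 transporters called between the groups, one point per array with its replicate as the symbol and the group mean as a black bar, green for Scf-GFP+ cells and purple for whole bone marrow. The groups do not overlap for any of the 8 genes, and Slc16a7 is highest in Scf-GFP+ replicate 1 (7.81).

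Sodium-coupled carriers held 1 call among 13 (7.69% called, beside 16.9% of all genes), and it was among the largest differences of all members. Slc5a3 carries myo-inositol, an osmolyte and the precursor of inositol lipids. It measured 9.49, 10.02 and 10.15 in Scf-GFP+ cells and 6.27, 6.14 and 6.39 in whole marrow. The groups were well separated, with 12.3-fold more in Scf-GFP+ cells (3.62 ± 0.19, limma adjusted p = 2.74e-05).

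The other 12 sodium-coupled carriers differed by -0.39 to 0.52 and were not called. They include Slc5a1 and Slc5a2, the sodium-glucose carriers of gut and kidney, at -0.13 ± 0.11 and -0.29 ± 0.12, and Slc5a11, the second inositol carrier of the family, at -0.17 ± 0.11. Slc5a7 and Slc5a12 lay below 5.19 in both group means, where arrays resolve little. Slc5a4a and Slc5a4b are close copies of each other, so which of them was measured is uncertain.

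Among 13 genes with Slc2 symbols, 2 were called higher, 0 lower and 11 neither (15.4% called, beside 16.9% of all genes). The main glucose carrier of most cells, Slc2a1 or GLUT1, did not pass. It measured 8.29, 7.61 and 7.56 in Scf-GFP+ cells and 7.97, 7.81 and 8.04 in whole marrow, with overlapping groups and a difference of -0.12 ± 0.21 (95% confidence interval -0.62 to 0.39). Scf-GFP+ replicate 1 was its highest array, and without it the difference was -0.35 (limma adjusted p = 0.118). Slc2a3, or GLUT3, a high-affinity carrier of neurons and white blood cells, measured 8.75, 8.30 and 9.38 against 9.40, 9.92 and 10.14. Its arrays did not overlap, but Scf-GFP+ replicate 3 lay just under the lowest marrow array, and the difference of -1.01 ± 0.31 missed the threshold (limma adjusted p = 0.056). It was called without Scf-GFP+ replicate 3 (-1.29, limma adjusted p = 0.0183), and narrowly after renewed quantile normalization, with reference gene centring and without the dimmest genes (limma adjusted p = 0.0496, 0.036 and 0.0424), and the adjusted p lay between 0.0183 and 0.544 over the alternatives.

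The carriers that rose are less common ones. Slc2a12, or GLUT12, measured 7.00, 7.07 and 6.24 in Scf-GFP+ cells and 5.40, 5.30 and 5.49 in whole marrow. Replicate 3 was the lowest Scf-GFP+ array and still lay above whole marrow (1.37 ± 0.23, 2.59-fold, limma adjusted p = 0.00506). With a term for the Xist split, which compares replicate 3 alone with whole marrow, the difference was 0.85 and under 2-fold.

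Slc2a10, or GLUT10, which is known for its part in artery wall disease, measured 6.65, 6.87 and 6.67 against 5.74, 5.74 and 5.61. The groups were tight and separate, but the difference lay just past the 2-fold limit (1.03 ± 0.11, limma adjusted p = 0.000681). It fell under that limit without Scf-GFP+ replicate 2 (0.96), without whole marrow replicate 3 (0.99), and also with reference gene centring (0.99) and with the term for the Xist split (0.97), each still with an adjusted p below 0.05.

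Slc2a13, a proton-coupled carrier of myo-inositol, varied most within Scf-GFP+ cells. It measured 7.55, 7.11 and 8.49 there and 6.73, 6.73 and 6.74 in whole marrow. All Scf-GFP+ arrays were higher, yet the difference of 0.99 ± 0.33 was not called (limma adjusted p = 0.0704), except without Scf-GFP+ replicate 2 (1.29, limma adjusted p = 0.0236) or with the term for the Xist split (1.76, limma adjusted p = 0.00312). The difference was 0.60 without Scf-GFP+ replicate 3.

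Slc2a8, an intracellular carrier, passed the adjusted p without reaching 2-fold, at 7.43, 7.96 and 7.99 against 7.11, 7.09 and 7.16 (0.68 ± 0.17, limma adjusted p = 0.027). Slc2a6, a carrier found on lysosomes of immune cells, did so in the other direction, at 7.24, 6.98 and 7.04 against 8.18, 7.94 and 8.01 (-0.96 ± 0.12, limma adjusted p = 0.00161). Slc2a6 crossed 2-fold when Scf-GFP+ replicate 1 (-1.03) or whole marrow replicate 2 (-1.01) was dropped. The insulin-regulated carrier Slc2a4 differed by -0.22 ± 0.26 and was not called.

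Calls among the enzymes of glycolysis were at single steps. All 9 upper-pathway differences were below 0 (-2.26 to -0.04), where 11866 of all 19938 genes were. Of the 9, 5 overlapped between groups, where 10888 of all genes did. Tpi1 and Pfkl had both signs over the alternatives, with maxima of 0.24 and 0.03. Of 9 upper-pathway genes 2 were called lower, and of 6 lower-pathway genes 2 were called lower, with 0 called higher in either. That is 22.2% and 33.3% called, beside 16.9% of all genes. The arrays lay apart, lower in Scf-GFP+ cells, for 4 genes of each list, beside 26.4% of all genes. By adjusted p alone, without the 2-fold minimum, 4 upper genes and 2 lower genes fell and Eno2 rose. Of all genes, 13.2% were lower and 13.8% higher by that criterion. The 4 called were hexokinases 2 and 3, phosphoglycerate kinase and pyruvate kinase.

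Hk2, the inducible hexokinase of muscle, fat and proliferating cells, measured 6.27, 6.07 and 6.47 in Scf-GFP+ cells and 8.10, 7.78 and 7.87 in whole marrow. Hk3, the hexokinase of white blood cells, measured 6.71, 6.53 and 6.57 against 8.81, 8.54 and 9.25. Both were clearly separated, Hk2 by -1.64 ± 0.15 (3.12-fold, limma adjusted p = 0.000308) and Hk3 by -2.26 ± 0.19 (4.81-fold, limma adjusted p = 0.000224). For Hk3, the range over Scf-GFP+ arrays was 0.18, with replicate 1 and its neutrophil transcripts included, and the difference without it was -2.32.

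Hk1, the hexokinase of most tissues, depended on which of its rows was read. The row of highest mean, which the rule takes, measured 11.86, 11.97 and 11.97 in Scf-GFP+ cells and 12.15, 11.95 and 12.16 in whole marrow and was not called (-0.15 ± 0.11, limma adjusted p = 0.353). That row lists 1 messenger RNA record and no RefSeq transcript. The other row, which lists the RefSeq transcripts of Hk1, measured 7.81, 8.37 and 8.37 against 9.50, 9.85 and 10.10. On it Hk1 fell by 1.63 ± 0.22 (3.10-fold, limma adjusted p = 0.00222 over 21789 rows fitted one by one), a comparison added after the values were seen. With rows chosen by a RefSeq transcript, 9 members in place of 8 were called lower.

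No gene tested in the middle of the pathway was called, and Gpi1 and Gapdh were not analysed. Of the phosphofructokinases, Pfkl and Pfkp differed by -0.07 ± 0.14 and -0.12 ± 0.15, and Pfkm, the muscle form, measured 7.96, 8.09 and 7.92 against 8.26, 8.53 and 8.51 (-0.44 ± 0.12, limma adjusted p = 0.0343, under 2-fold). Aldoa, the main aldolase, measured 10.71 on all 3 Scf-GFP+ arrays and 10.71, 10.87 and 10.82 in whole marrow. Its difference of -0.09 had a 95% confidence interval of -0.32 to 0.14, which is narrow. Aldoc, a brain form, measured 5.91, 5.94 and 6.01 against 6.35, 6.50 and 6.39 and passed only the adjusted p (-0.46 ± 0.10, limma adjusted p = 0.015). Tpi1, which interconverts the triose phosphates, scattered from 9.14 to 10.07 in Scf-GFP+ cells and from 9.09 to 10.27 in whole marrow, so a difference of -0.88 to 0.80 is within its interval.

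Pgk1, the first enzyme of glycolysis that makes ATP, measured 9.91, 9.89 and 10.02 in Scf-GFP+ cells and 11.14, 10.98 and 11.15 in whole marrow. The groups were tight and separate (-1.15 ± 0.11, 2.22-fold, limma adjusted p = 0.00034), and its 3 rows, of which 2 hold the same values, gave -1.15, -1.15 and -1.10. Pgk1 is X-linked, and its Scf-GFP+ values were alike on the arrays with high and with low Xist. Pkm, pyruvate kinase, measured 9.52, 9.21 and 10.10 against 10.96, 11.05 and 11.09. It fell by 1.42 ± 0.22 (2.68-fold, limma adjusted p = 0.00391), and its second row gave -1.54. Scf-GFP+ replicate 3 was the closest to whole marrow, and the difference was -0.94, under 2-fold, with a term for the Xist split. The rows do not separate the splice forms of Pkm.

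Mutase and enolase transcripts were not called. Pgam1, the widespread mutase, measured 8.45, 8.48 and 8.41 against 8.68, 8.68 and 8.84 (-0.29 ± 0.10, limma adjusted p = 0.0847). Pgam2, the muscle form, measured 5.96, 6.63 and 5.84 against 6.69, 7.44 and 6.64 (-0.78 ± 0.29, limma adjusted p = 0.0983). It was called without Scf-GFP+ replicate 2 (-1.02, limma adjusted p = 0.0452). Eno3, the muscle enolase, overlapped between groups at 8.85 to 9.50 over the 3 Scf-GFP+ arrays against 8.67, 8.97 and 8.38 (0.44 ± 0.22, limma adjusted p = 0.201). Without Scf-GFP+ replicate 1, its highest array, the difference was 0.25. Eno2, the neuronal form, was higher on every Scf-GFP+ array, at 6.56, 6.47 and 6.37 against 6.08, 6.00 and 5.98, a difference under 2-fold (0.45 ± 0.10, limma adjusted p = 0.0192). A fixed list of 6 skeletal muscle markers had 0 calls and averaged 5.94 to 5.98 in Scf-GFP+ cells and 6.19 to 6.38 in whole marrow.

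**Figure D3:**
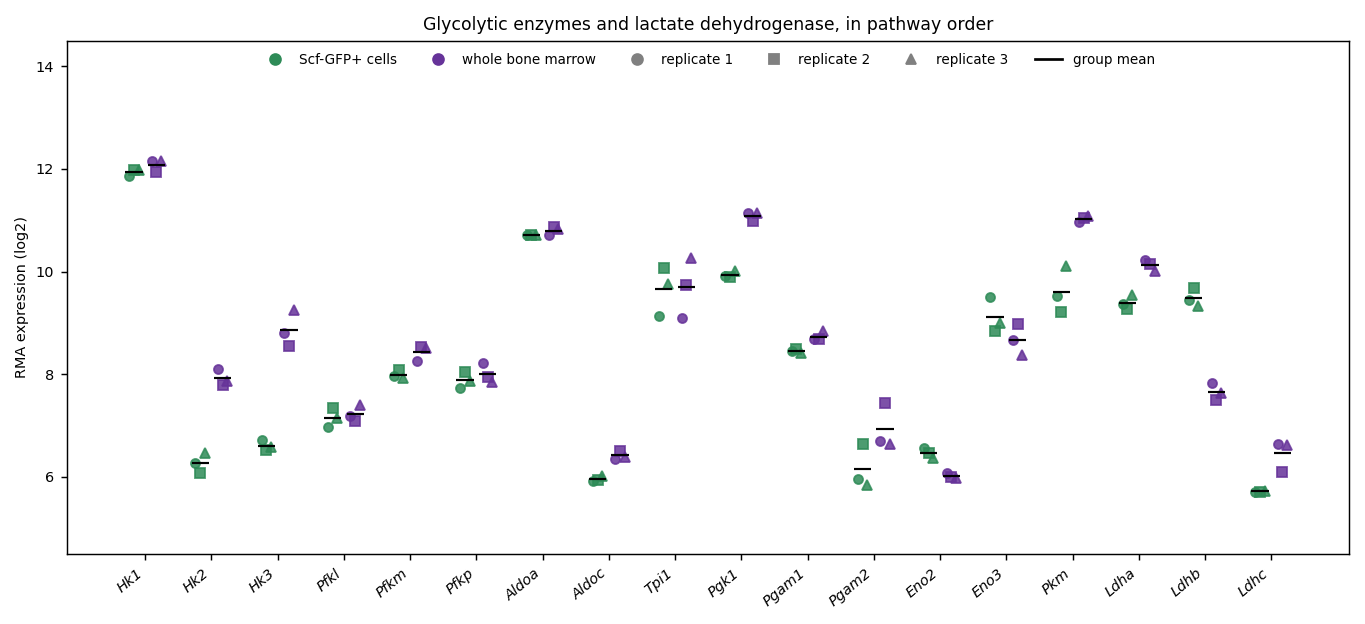
RMA expression (log2, vertical axis) of glycolytic enzymes and lactate dehydrogenases in the order of the pathway, one point per array with its replicate as the symbol and the group mean as a black bar, green for Scf-GFP+ cells and purple for whole bone marrow. Hk2, Hk3, Pgk1 and Pkm lie lower in Scf-GFP+ cells and Ldhb higher, while Aldoa lies at 10.71 on all Scf-GFP+ arrays. Heights of different genes are not comparable.

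The lactate dehydrogenase genes moved in opposite directions. Ldhb encodes the heart-type subunit, which favours turning lactate into pyruvate, and measured 9.45, 9.68 and 9.32 in Scf-GFP+ cells and 7.83, 7.49 and 7.63 in whole marrow. It rose by 1.83 ± 0.14 (3.57-fold, limma adjusted p = 0.000162). The second row of Ldhb gave a smaller difference, 1.04 ± 0.16 (2.06-fold, limma adjusted p = 0.00347 over all rows), in the same direction.

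Ldha encodes the muscle-type subunit, which favours making lactate, and measured 9.36, 9.26 and 9.55 against 10.22, 10.14 and 10.01. All Scf-GFP+ arrays were lower, and the difference of -0.73 ± 0.12 passed the adjusted p (0.00507 in limma) without reaching 2-fold. Ldhc, the testis form, measured 5.70, 5.71 and 5.73 against 6.64, 6.10 and 6.62 (-0.74 ± 0.17, limma adjusted p = 0.0171). On each array the Ldhb value minus the Ldha value lay between -0.23 and 0.42 in Scf-GFP+ cells and between -2.65 and -2.38 in whole marrow. This shift of 2.57 between groups gave p = 0.10 in a two-sided exact permutation test, the smallest that 3 arrays against 3 allow, and 0.138 after adjustment over 11 pairs. Its size depends on the row: it uses the Ldhb row of highest mean, and the second row, with a difference of 1.04, would make it smaller.

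The kinases that switch off pyruvate dehydrogenase also split. Pdk4, induced by fasting and fatty acids, measured 9.09, 8.83 and 10.04 in Scf-GFP+ cells and 5.55, 5.59 and 5.66 in whole marrow (3.72 ± 0.30, 13.2-fold, limma adjusted p = 0.000192). Pdk1, a known target of hypoxia-inducible factors, measured 6.36, 6.53 and 6.30 against 6.99, 7.11 and 7.53 and was lower under 2-fold (-0.81 ± 0.17, limma adjusted p = 0.0117). The Pdk4 value minus the Pdk1 value shifted by 4.53 between groups (exact permutation p = 0.10).

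Pdk2 and Pdk3 were not called. Pdk2 measured 8.22, 7.15 and 7.75 against 6.82, 7.10 and 6.91 (0.76 ± 0.27, limma adjusted p = 0.0828). Without Scf-GFP+ replicate 2, its lowest array of that group, Pdk2 was called at 1.04 (limma adjusted p = 0.0122). Pdk3, which is X-linked, differed by 0.12 ± 0.22.

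The regulators of phosphofructokinase moved apart without passing both criteria. The Pfkfb enzymes make and break fructose 2,6-bisphosphate, the strongest activator of phosphofructokinase. Pfkfb3 measured 10.20, 9.31 and 9.74 in Scf-GFP+ cells and 9.03, 9.01 and 8.98 in whole marrow (0.74 ± 0.22, limma adjusted p = 0.0486). Its highest value was in Scf-GFP+ replicate 1, and without that array the difference was 0.52 (limma adjusted p = 0.0776). Pfkfb4 measured 6.40, 6.29 and 6.19 against 7.09, 7.44 and 7.28, a difference of -0.97 ± 0.13 that lies just inside the 2-fold limit (limma adjusted p = 0.00184).

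Pfkfb4 passed that limit when arrays were centred on their medians (-1.01) and without Scf-GFP+ replicate 1 (-1.03) or whole marrow replicate 1 (-1.06). Pfkfb2 and the bisphosphatase Fbp2 differed by 0.31 ± 0.17 and 0.15 ± 0.09. Fbp1, the bisphosphatase of gluconeogenesis, was low in both groups, at 4.66, 4.87 and 4.94 against 5.29, 5.15 and 6.40 in whole marrow. Its arrays did not overlap, but 1 marrow array lay well above the others. The difference was not called (-0.79 ± 0.33, limma adjusted p = 0.13) and ran from -1.02 to -0.40 over the alternatives.

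**Figure D4:**
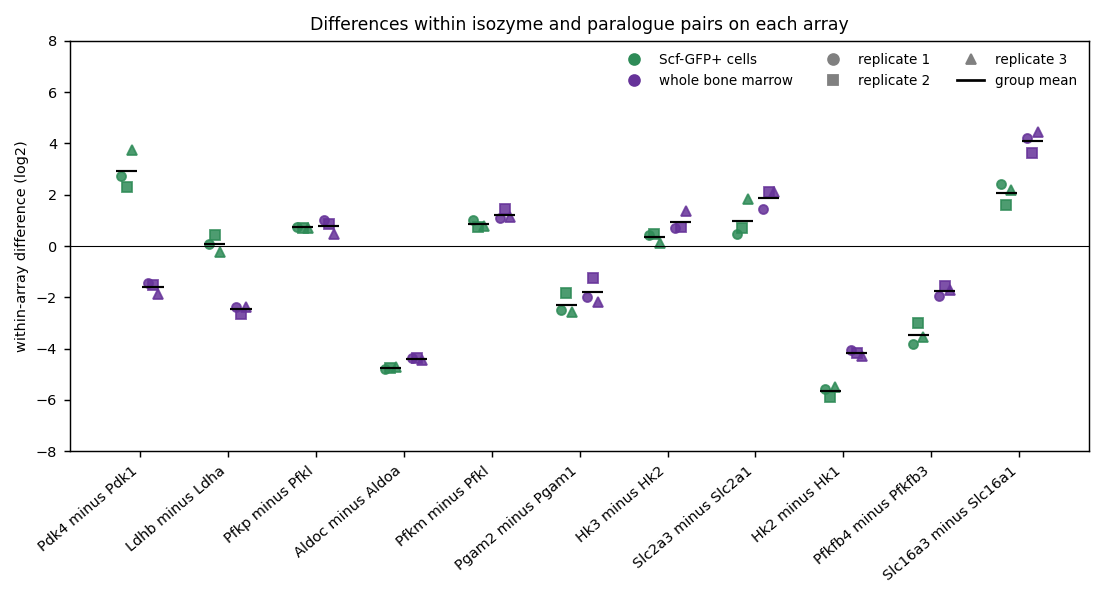
Difference between the genes of a pair on the same array (log2, vertical axis) for 11 pairs of isozymes or related carriers, one point per array with its replicate as the symbol and the group mean as a black bar, green for Scf-GFP+ cells and purple for whole bone marrow. The shift between groups carries the information and the height does not, since levels of different genes are not comparable. Pdk4 against Pdk1 shifts by 4.53 and Ldhb against Ldha by 2.57, while Pfkp against Pfkl shifts by -0.05. Each gene is shown by its row of highest mean, and the second row of Ldhb would give a smaller shift.

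Of these 11 pairs, 8 gave the smallest exact permutation p of 0.10 and 3 a larger one, so no pair could pass a threshold of 0.05. That smallest p means only that the within-array differences did not overlap between groups. Taken singly, 19% of all genes lay apart higher and 26.4% lower. The share over other gene pairs was not computed, so the count of 8 has no background. The pair of Slc16a1 and Slc16a3 shifted by -2.02, since Slc16a3 fell further than Slc16a1, and that of Pfkfb3 and Pfkfb4 by -1.71. The pair of Hk1 and Hk2 shifted by -1.49 on the row of Hk1 with highest mean and by -0.01 on its RefSeq row (exact permutation p = 1), so the Hk1 pair depends on the row.

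Neighbouring pathways, taken from lists of known genes, showed a mixed picture. Of 12 pentose phosphate genes, 4 were called lower and 0 higher (33.3% called, beside 16.9% of all genes, with a median of -0.75 beside -0.08). The transketolase Tkt fell by 1.97 ± 0.14, the transaldolase Taldo1 by 1.92 ± 0.13 and the isomerase Rpia by 1.39 ± 0.22, with limma adjusted p from 8.77e-05 to 0.00406. Pgls, the lactonase, fell by 1.07 ± 0.20 (limma adjusted p = 0.0079) and was under 2-fold without Scf-GFP+ replicate 1 (-0.87) or whole marrow replicate 3 (-0.98). It was also not called with the term for the Xist split (-0.83, limma adjusted p = 0.0995) or in limma's test against 1.5-fold (adjusted p = 0.147).

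Of 20 genes of the tricarboxylic acid cycle, 3 were called higher and 0 lower (15% called, beside 16.9% of all genes, median 0.21). Idh1 and Aco1 among them are cytosolic counterparts of cycle enzymes. Idh1, an isocitrate dehydrogenase, rose by 1.35 ± 0.15 (limma adjusted p = 0.000869). Suclg2, a subunit of succinyl-CoA ligase, rose by 1.16 ± 0.27 (limma adjusted p = 0.0212) but was under 2-fold when Scf-GFP+ replicate 2 (0.97) or whole marrow replicate 1 (0.89) was dropped. Aco1, an aconitase that also controls iron, rose by 1.02 ± 0.18 and was under 2-fold when Scf-GFP+ replicate 1 (0.93) or whole marrow replicate 2 (0.86) was dropped and with each of the other 3 scalings (0.98 to 0.99). The count of higher calls in this list was 1 both in limma's test against 1.5-fold and with the term for the Xist split.

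Of 10 genes for pyruvate entry into mitochondria, 1 was called higher and 0 lower (10% called, beside 16.9% of all genes). Their median was 0.38, beside -0.08 for all genes. The call was Pdpr, a regulatory subunit of the phosphatase that reactivates pyruvate dehydrogenase (1.31 ± 0.26, limma adjusted p = 0.00999). It was not called in limma's test against 1.5-fold (adjusted p = 0.0958) or with the term for the Xist split (adjusted p = 0.119), and the count was 2 without whole marrow replicate 3. By adjusted p alone, 3 of these 10 genes were higher and 0 lower, where 13.8% of all genes were higher. None of 7 gluconeogenesis genes was called in limma (0 higher and 0 lower, beside 16.9% of all genes called). By adjusted p alone 1 was lower, where 13.2% of all genes were.

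Among 18 other hexose enzymes and regulators, 1 was called higher and 2 lower (16.7% called, beside 16.9% of all genes). Arrdc4, an arrestin related to Txnip that restrains glucose uptake, measured 11.12, 10.79 and 11.22 in Scf-GFP+ cells and 7.74, 7.96 and 7.48 in whole marrow (3.32 ± 0.17, 9.96-fold, limma adjusted p = 2.64e-05). Txnip itself, named after its values were seen, was higher on every Scf-GFP+ array but under 2-fold (0.93 ± 0.15, limma adjusted p = 0.00466). Without whole marrow replicate 2 the count of higher calls was 2 in place of 1. Bpgm, which makes the red cell metabolite that loosens oxygen from haemoglobin, fell by 2.90 ± 0.25 (7.46-fold), and Adpgk, an ADP-dependent glucokinase, fell by 2.19 ± 0.19. Their limma adjusted p were 0.000275 and 0.000274.

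Of 23 glycogen genes, 4 were called higher and 2 lower (26.1% called, beside 16.9% of all genes). Gaa, the lysosomal glycogen-degrading glucosidase, rose by 2.73 ± 0.17 (6.62-fold, limma adjusted p = 6.9e-05), and Phka1, a regulatory subunit of phosphorylase kinase, by 1.57 ± 0.18 (limma adjusted p = 0.000906). The liver-type phosphorylase Pygl fell by 3.89 ± 0.50 (14.8-fold, limma adjusted p = 0.00157), with 8.25 in Scf-GFP+ replicate 1 against 6.15 and 7.07 in the other arrays of that group and a difference of -4.44 without that array. Glycogenin, Gyg, which primes glycogen, fell by 1.88 ± 0.20 (limma adjusted p = 0.00073). In limma's test against 1.5-fold, 2 of the 4 higher calls were left.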

How the data were processed

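RNA of 5000 sorted cells per array was amplified and hybridised to 6 Affymetrix Mouse Gene ST 1.0 arrays, 3 per group. The authors deposited 1 table of log2 values, with RMA, affy and limma named as tools in the submitters' processing notes, which give neither version nor role. The annotation build of the array is not given in the sources used here. Of 28940 rows, 21789 carried a single gene symbol, 1621 several and 5530 none. Rows with several or none were not used. Symbols were updated through RefSeq GRCm38.p6, 91 rows kept their listed symbol, and the row of highest mean stood for each of 999 genes with several rows. RMA gives no detection call, values of different genes are not comparable, and the number of arrays limits the precision.

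Groups came from the labels. All 19938 genes were fitted with limma 3.58.1 (statmod 1.5.0, R 4.3.3; lmFit and eBayes) with Benjamini-Hochberg adjustment over all of them. Calls needed both an adjusted p under 0.05 and a 2-fold difference. Pairs of genes were compared by two-sided exact permutation tests of within-array differences. The script was tested on simulated data. All members could be named. Array values were given for called members, the highest-mean isozyme of each step, and members near either threshold, and up to 4 called genes per other list. The members and lists were chosen with earlier results of these data known. The 18 alternatives covered scaling, filters, row choice, test settings, a replicate block, the Xist split and each array left out. Promoter windows came from RefSeq (GRCm38.p6).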

Additional observations from a re-analysis of the deposited data

How the results depend on the processing

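Over 18 alternatives, 9 of the 14 called members kept their call, and 5 lost it under at least 1: Slc2a10, Slc2a12, Slc16a1, Slc16a7 and Pkm. Of 52 members not called, 15 were called under some alternative and 37 under none. Of the 15, Aldoc, Eno2, Ldha, Ldhc, Pdk1, Pfkfb3, Pfkm and Slc2a8 were called only without a minimum fold, a setting that can only add calls. Among called differences 0 changed sign, while 10 members that were not called had both signs over the alternatives. By adjusted p alone, without a minimum fold, 15 members were lower in place of 8 and 9 higher in place of 6, and over all genes 2635 were lower and 2758 higher in place of 1574 and 1796. Leaving out each array in turn gave 5 to 7 members higher and 8 to 10 lower. With the term for the Xist split, 4 were higher, of which 3 were among the 6, and 8 were lower, of which 6 were among the 8. Centring on 12 reference genes gave 5 higher and 11 lower. The row with a RefSeq transcript, the separate fit of rows and the alternatives for other pathway lists were chosen after seeing the data, and the first gave 6 higher and 9 lower. Same-numbered arrays showed no shared deviation (correlations of -0.06, -0.02 and 0.07, and -0.09 to 0.11 for differently numbered arrays). So few correlations cannot exclude that the numbers pair the samples. With the replicate block 6 members were higher and 9 lower, Slc2a3 being the one added (limma adjusted p = 0.0358).

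With 3 arrays per group, differences near 2-fold changed sides with single arrays, and 11 members among the dimmest 30% of genes, 0 of them called, lie where arrays resolve little.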
